A study of Mus musculus with 8 samples.

Results

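The genes described here are 35 mouse genes of glycolysis, the pentose phosphate pathway and HIF-1 signalling, named by their symbols, out of 55359 genes listed for this experiment. They cover 3 glucose transporters, 3 hexokinases, the enzymes that carry glucose 6-phosphate to pyruvate, and 3 of the enzymes that set fructose 2,6-bisphosphate. The others are 2 lactate dehydrogenases, 2 lactate transporters, 4 pentose phosphate enzymes, and Hif1a with 3 genes under HIF-1 control. All 35 were found, and all 35 passed the filter of a mean of at least 10 normalized counts over the 8 samples, so that none was lost for low counts. Total RNA was sequenced from bone marrow-derived Mϕ (BMDMs) of wild-type C57BL/6 mice, grown in M-CSF and GM-CSF, both at 20 ng/mL. Each of 4 groups held 2 samples. Ctrl Mϕ were naïve and unstimulated, and LPS Mϕ were naïve and received 100 ng/mL LPS with 100 U/mL IFNγ for 6 h. Eff Mϕ had been kept for 16 h with 5 apoptotic fibroblasts per Mϕ and 10 nM dimerizer. LPSEff Mϕ went through that co-culture and then the same stimulation for 6 h. The fibroblasts were NIH-3T3 CA cells, an engineered mouse line in which the dimerizer switches on caspase-8. CD45+ cells were selected with magnetic beads before RNA isolation. Whether Ctrl and LPS Mϕ also received dimerizer was not given in the sources used here, and nothing there says that the 2 samples of a group came from separate mice, so that all p-values measure the spread between these samples, which may be technical.

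Glycolysis splits glucose into pyruvate in the cytosol and yields ATP without oxygen, and lactate dehydrogenase then turns pyruvate into lactate, which leaves the cell through monocarboxylate transporters. The pentose phosphate pathway branches off at glucose 6-phosphate, where its oxidative arm makes NADPH and its non-oxidative arm exchanges carbon units with glycolysis. HIF-1 is a transcription factor whose alpha subunit is hydroxylated by oxygen-sensing enzymes and degraded in normoxia. Once stable, it binds short DNA elements near genes of glucose uptake and glycolysis, and Mϕ exposed to LPS are known for raised Hif1a transcription and glucose use.

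The hypoxia response element has the core ACGTG or GCGTG, and both were searched on both strands in RefSeq promoter windows of GRCm38.p6 that run from 250 bases before to 50 bases after the transcription start. Of the 35 genes, 34 had an entry (Slc2a3 had none), and 31 of these 34 (91.2%) held at least 1 core in at least 1 window. The same held for 46.7% of all 27025 genes of the table and for 66.8% of the 10235 genes of the table that had a mean of at least 10 normalized counts here. Taken window by window, 43.8% of 32851 promoters held a core. The E-box CACGTG, which contains ACGTG, was found in 7 of the 34 (20.6%, against 8.09% of all genes and 11.6% of those with a mean of at least 10). The motif TTCNNNGAA, the GAS element of STAT factors, was found in 2 (5.88%, against 9.55% and 8.13%), and GGGANTTTC, a form of the NF-κB site, in 0 (against 1.29% and 1.26%). A letter match is a description and not a bound site. The promoters of the 6 genes with the largest changes among those that passed the test in both LPS/IFNγ contrasts or in an efferocytosis contrast are printed 5′ to 3′ because these genes carry the results that follow, with each core on either strand in capitals. Pfkfb3 has 2 windows in the table, of which 1 is shown.
Slc2a6, chr2:27027949-27028248, minus strand: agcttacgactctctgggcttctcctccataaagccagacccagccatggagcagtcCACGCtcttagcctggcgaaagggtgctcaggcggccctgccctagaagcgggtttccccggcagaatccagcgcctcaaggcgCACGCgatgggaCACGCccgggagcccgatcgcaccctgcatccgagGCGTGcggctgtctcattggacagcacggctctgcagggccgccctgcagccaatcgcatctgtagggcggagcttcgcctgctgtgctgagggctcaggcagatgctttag
Hk2, chr6:82774405-82774704, minus strand: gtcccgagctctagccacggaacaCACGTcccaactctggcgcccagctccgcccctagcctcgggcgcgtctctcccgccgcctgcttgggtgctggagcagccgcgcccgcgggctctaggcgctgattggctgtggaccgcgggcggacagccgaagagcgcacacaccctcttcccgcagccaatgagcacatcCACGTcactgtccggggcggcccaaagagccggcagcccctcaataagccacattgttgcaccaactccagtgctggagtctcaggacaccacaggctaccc
Hif1a, chr12:73907617-73907916, plus strand: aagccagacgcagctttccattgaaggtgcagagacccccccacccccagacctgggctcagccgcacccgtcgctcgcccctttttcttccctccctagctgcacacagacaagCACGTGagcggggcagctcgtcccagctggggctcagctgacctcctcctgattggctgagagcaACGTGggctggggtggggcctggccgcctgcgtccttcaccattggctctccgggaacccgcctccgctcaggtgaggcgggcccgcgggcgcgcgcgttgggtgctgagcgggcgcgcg
Pfkfb3, chr2:11553880-11554179, minus strand: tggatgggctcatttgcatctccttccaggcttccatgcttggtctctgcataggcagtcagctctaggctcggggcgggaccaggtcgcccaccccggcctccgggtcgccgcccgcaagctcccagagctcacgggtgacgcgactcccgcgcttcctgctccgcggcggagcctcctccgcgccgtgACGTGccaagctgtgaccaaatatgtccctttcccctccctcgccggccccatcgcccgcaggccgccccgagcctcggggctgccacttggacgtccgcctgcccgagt
Hk3, chr13:55021336-55021635, minus strand: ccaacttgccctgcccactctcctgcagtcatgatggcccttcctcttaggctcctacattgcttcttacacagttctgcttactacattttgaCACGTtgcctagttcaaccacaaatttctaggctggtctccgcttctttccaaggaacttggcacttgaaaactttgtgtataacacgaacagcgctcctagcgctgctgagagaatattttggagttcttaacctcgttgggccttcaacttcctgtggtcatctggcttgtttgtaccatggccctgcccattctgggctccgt
Slc16a1, chr3:104638414-104638713, plus strand: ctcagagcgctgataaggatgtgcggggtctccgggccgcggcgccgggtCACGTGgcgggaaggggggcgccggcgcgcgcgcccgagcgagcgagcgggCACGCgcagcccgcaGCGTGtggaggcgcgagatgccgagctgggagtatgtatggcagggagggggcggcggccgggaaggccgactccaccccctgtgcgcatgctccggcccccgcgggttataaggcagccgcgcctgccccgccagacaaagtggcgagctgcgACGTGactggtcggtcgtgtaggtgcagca
Hif1a and Slc16a1 held the full CACGTG among their cores. Slc2a6 held 4 cores of the GCGTG kind, Hk2 held 2 of the ACGTG kind, and Hk3 and the window shown of Pfkfb3 held 1 each.

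Libraries held between 3481288 and 12020918 recovered reads, and 3 reads were worth between 1.73 and 5.71 normalized counts. Normalized totals were between 6587737 and 6951788 without and between 8470249 and 9489294 with LPS/IFNγ. All 8 markers of the LPS/IFNγ response rose in both stimulated groups, and none of 10 macrophage markers was at 0 in any sample, with sums between 110471 and 165914 normalized counts. The sum of 16 fibroblast markers was between 173 and 380 in Ctrl, between 940 and 997 in LPS, between 2029 and 3869 in Eff and between 5464 and 6049 in LPSEff. In bulk RNA, fewer cells of a type and less RNA per cell cannot be told apart. The 35 genes together took 0.549% and 0.580% of normalized counts in Ctrl and 0.721% and 0.623% in Eff, against 0.793% and 0.561% in LPS and 1.06% and 0.674% in LPSEff, in the order of replicates 1 and 2. The groups overlapped in this share.

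With LPS/IFNγ, 1 glucose transporter gene (Slc2a6), 2 of 3 hexokinase genes (Hk2 and Hk3) and 1 of 3 phosphofructokinase genes (Pfkp) rose in both naïve and efferocytic Mϕ. So did Hif1a and Pfkfb3, 1 of the 3 PFKFB genes among the 35, and the transketolase gene Tkt fell in both. Slc2a1 and Hk1 rose and Pfkfb2 fell in efferocytic Mϕ, Eno2 rose and Slc2a3, Aldoc and Slc16a1 fell in naïve Mϕ, and most genes of the later steps of glycolysis did not pass the test. In naïve Mϕ, 7 of the 35 genes rose and 4 fell (limma, adjusted p under 0.05, n = 2 per group), which is 20% and 11.4% of them, where 12.4% and 11.6% of all 16309 tested genes rose and fell. In efferocytic Mϕ, 8 rose and 2 fell, or 22.9% and 5.71%, where 10.7% and 8.95% of all tested genes did. The median log2 fold change over the 35 genes was 0.08 in naïve and 0.28 in efferocytic Mϕ, beside -0.01 and 0.01 over all tested genes. DESeq2 on the recovered reads called 12 genes in naïve Mϕ, with Hk1 and Slc2a1 added and Slc2a3 lost, and 14 in efferocytic Mϕ, with Pfkl, Slc2a3, Slc16a3 and Bnip3 added, where it called 24.2% and 22.9% of all genes with an adjusted p. A total of 14 genes were called in at least 1 of both contrasts and 7 of them in both, each in the same direction. Limma called 24% of all tested genes in naïve and 19.7% in efferocytic Mϕ, and their share called in both is not given here. The sign was the same in both contrasts for 27 of the 35 genes and for 83.1% of all tested genes. Across the 35 genes, both contrasts, which share no sample, correlated with r = 0.866, beside 0.890 over all tested genes. Genes are not independent replicates, and this is a description only. When all samples were instead scaled to equal totals, the median of all tested genes moved by -0.39 in naïve and by -0.44 in efferocytic Mϕ. The split of the 35 became 7 risen and 7 fallen in naïve and 6 risen and 5 fallen in efferocytic Mϕ. Of all 16309 tested genes, 1420 then rose and 4315 fell in naïve Mϕ, and 1216 rose and 4362 fell in efferocytic Mϕ.

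**Figure D1:**
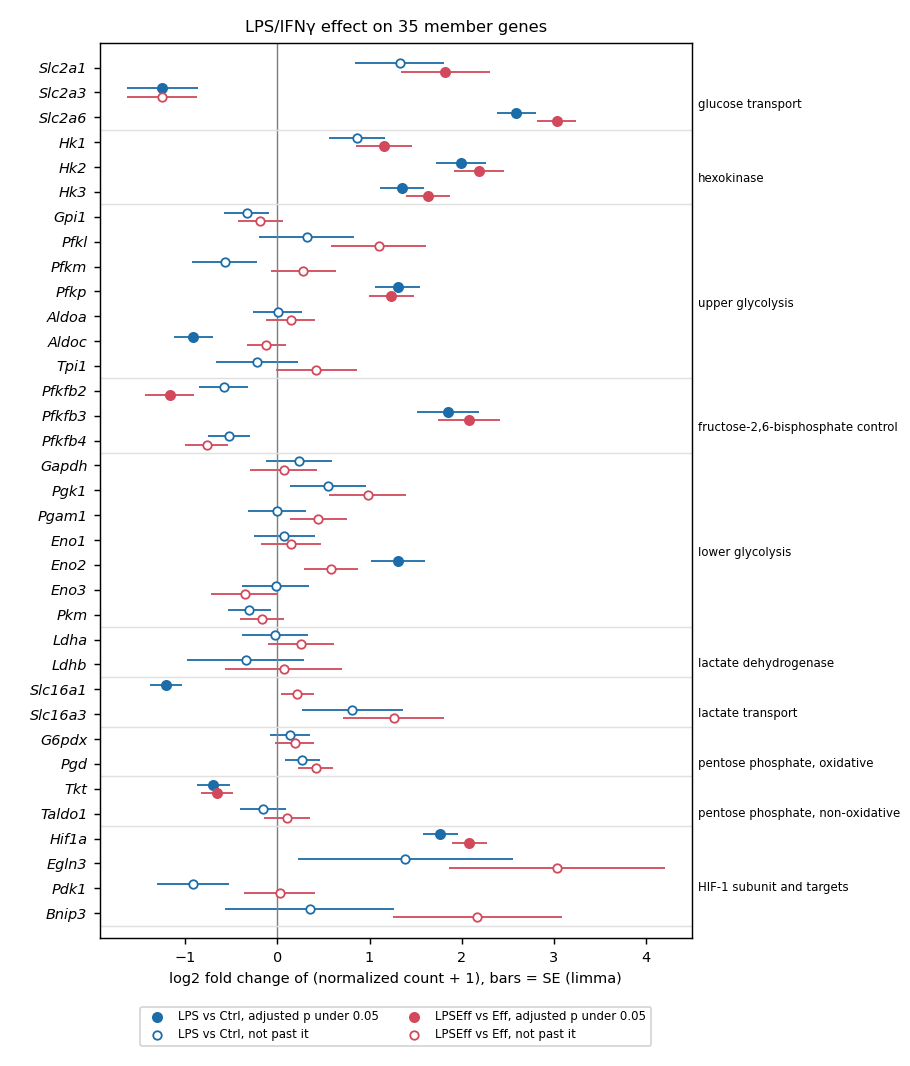
Log2 fold change of (normalized count + 1) with its SE from limma for the 35 genes, ordered by role, in LPS against Ctrl (blue) and in LPSEff against Eff (red), with n = 2 samples per group. Filled points had an adjusted p under 0.05. Slc2a6, Hk2, Hk3, Pfkp, Pfkfb3 and Hif1a lie above 0 and Tkt below 0 with filled points in both contrasts, and most genes from Aldoa to Ldhb lie near 0.

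Of the glucose transporters, Slc2a6 changed most. Slc2a6 encodes GLUT6, a transporter found on intracellular membranes, and its gene lies at chr2:26911226-26918092 on the minus strand (GRCm39). Its normalized counts were 1386 and 1284 in Ctrl and 852 and 717 in Eff, against 8602 and 7557 in LPS and 7425 and 5494 in LPSEff. All 4 stimulated samples were above all 4 unstimulated ones. The log2 fold change of Slc2a6 was 2.59 ± 0.21 (SE, adjusted p = 0.000137) in naïve and 3.03 ± 0.21 (adjusted p = 5.99e-05) in efferocytic Mϕ.

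Slc2a1 encodes GLUT1, the main glucose importer of the Mϕ plasma membrane. It had 836 and 1408 normalized counts in Ctrl and 1543 and 1260 in Eff, against 4072 and 1825 in LPS and 7464 and 3262 in LPSEff. The groups with and without LPS/IFNγ did not overlap, but replicate 1 was above replicate 2 by 1.16 in LPS and by 1.19 in LPSEff on the log2 scale. Slc2a1 rose in efferocytic Mϕ (1.82 ± 0.48, adjusted p = 0.0319). In naïve Mϕ the value was 1.33 ± 0.48 with an adjusted p of 0.0841, and the difference between both effects was not past the test (0.49 ± 0.68, adjusted p = 1.00). Without LPSEff replicate 1 the value of Slc2a1 in efferocytic Mϕ was 1.23 and its adjusted p 0.182. The call was also lost without Eff replicate 1 (adjusted p = 0.0936) and without Eff replicate 2 (0.141), and with equal totals (1.37, adjusted p = 0.0753). In naïve Mϕ, Slc2a1 was called by DESeq2 (1.46, adjusted p = 0.00702) and by limma without LPS replicate 2 (1.91, adjusted p = 0.0363). Slc2a3, which encodes the high-affinity transporter GLUT3, had 87.6 and 120 normalized counts in Ctrl and 61.3 and 73.4 in Eff, against 29.7 and 60.9 in LPS and 30.1 and 25.4 in LPSEff. It fell in naïve Mϕ (-1.25 ± 0.38, adjusted p = 0.0472), with the same size but an adjusted p of 0.0539 in efferocytic Mϕ. The call in naïve Mϕ held in 8 of 18 alternative analyses. It was lost without each library but LPS replicate 2, and the value was -0.74 without LPS replicate 1.

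Hexokinases phosphorylate glucose and so trap it in the cell. Hk2, the inducible mitochondria-bound form, lies at chr6:82699740-82751469 on the minus strand. It had 682 and 818 normalized counts in Ctrl and 1000 and 865 in Eff, against 3655 and 2411 in LPS and 5214 and 3451 in LPSEff. Every stimulated sample exceeded every unstimulated one, and Hk2 rose by 1.99 ± 0.27 (adjusted p = 0.00162) in naïve and by 2.19 ± 0.27 (adjusted p = 0.00116) in efferocytic Mϕ. Hk3, a form typical of myeloid cells, lies at chr13:55153798-55169276 on the minus strand. Hk3 had 2001 and 1879 normalized counts in Ctrl and 2759 and 2001 in Eff, against 5533 and 4425 in LPS and 8520 and 6247 in LPSEff. Here too the samples with and without LPS/IFNγ were apart, and Hk3 rose by 1.35 ± 0.24 (adjusted p = 0.00548) and 1.63 ± 0.24 (adjusted p = 0.00271). Hk1, the widely expressed form, had 834 and 1090 normalized counts in Ctrl and 973 and 997 in Eff, against 2170 and 1397 in LPS and 2857 and 1692 in LPSEff. It rose in efferocytic Mϕ by 1.16 ± 0.30 (adjusted p = 0.0309), and in naïve Mϕ its value was 0.87 ± 0.30 (adjusted p = 0.0748). The call of Hk1 was lost without LPSEff replicate 1 (0.78, adjusted p = 0.182), without Eff replicate 1 (0.126) and without Eff replicate 2 (0.114), and with equal totals (0.71, adjusted p = 0.138).

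PFKFB enzymes make and degrade fructose 2,6-bisphosphate, the strongest activator of phosphofructokinase, and PFKFB3 is the isoform that chiefly makes it. Pfkfb3 lies at chr2:11476244-11558888 on the minus strand. Its normalized counts were 746 and 778 in Ctrl and 705 and 526 in Eff, against 2544 and 2976 in LPS and 3792 and 1753 in LPSEff. The stimulated samples did not overlap the others, and Pfkfb3 rose by 1.85 ± 0.34 (adjusted p = 0.0059) in naïve and by 2.08 ± 0.34 (adjusted p = 0.00405) in efferocytic Mϕ. Pfkfb2 had 101 and 114 normalized counts in Ctrl and 105 and 114 in Eff, against 72.4 and 70.1 in LPS and 39.6 and 58.4 in LPSEff. It fell in efferocytic Mϕ (-1.17 ± 0.27, adjusted p = 0.0177), with -0.58 ± 0.27 (adjusted p = 0.16) in naïve Mϕ. The call of Pfkfb2 was lost without Eff replicate 1 (adjusted p = 0.0786), Eff replicate 2 (0.101) or LPSEff replicate 1 (0.112). Of its annotated 50-base windows, 38.7% also occur in another annotated gene, so that its level is uncertain. Pfkfb4 had values of -0.52 ± 0.23 and -0.77 ± 0.23 in naïve and efferocytic Mϕ, with adjusted p of 0.146 and 0.0513.

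Phosphofructokinase itself commits sugar to glycolysis. Pfkp, the platelet-type subunit, had 1171 and 1561 normalized counts in Ctrl and 969 and 1104 in Eff, against 2725 and 4100 in LPS and 2370 and 2509 in LPSEff. It rose by 1.30 ± 0.24 (adjusted p = 0.0064) and by 1.24 ± 0.24 (adjusted p = 0.00929). The call of Pfkp was lost without Ctrl replicate 1 in naïve Mϕ (1.10, adjusted p = 0.0529), and without Eff replicate 1 (1.14, 0.0686) or LPSEff replicate 2 (1.19, 0.0504) in efferocytic Mϕ. The liver-type Pfkl was at 815 and 638 in Ctrl and 874 and 573 in Eff, against 1432 and 564 in LPS and 2381 and 967 in LPSEff, and was not called (0.32 ± 0.52 and 1.10 ± 0.52, adjusted p = 0.72 and 0.184). The muscle-type Pfkm was between 39.4 and 78.6 normalized counts in all samples and was not called.

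**Figure D2:**
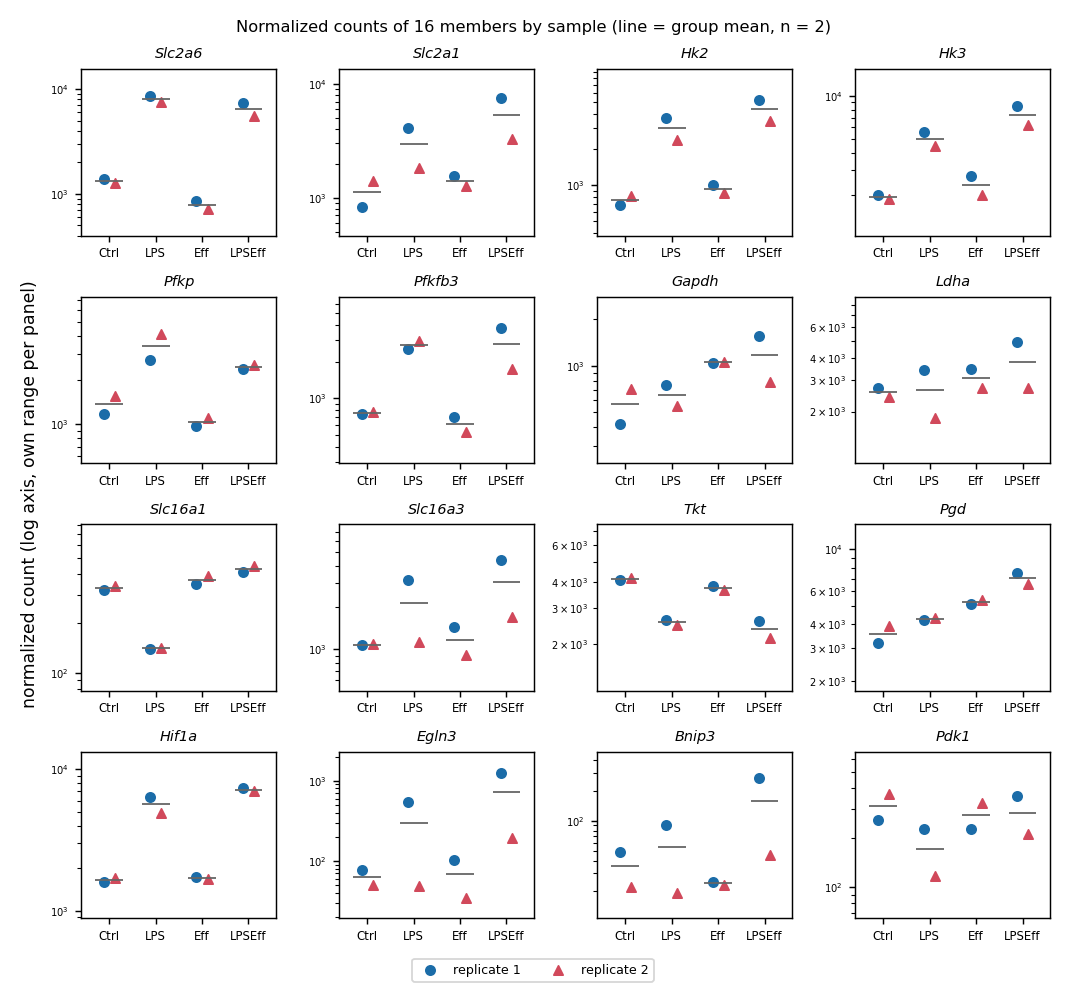
Normalized counts of 16 of the genes in each sample on a log axis with its own range per panel, with replicate 1 as blue circles, replicate 2 as red triangles and the group mean (n = 2) as a line. Slc2a6, Hk2, Hk3, Pfkfb3 and Hif1a separate all 4 samples with LPS/IFNγ from the 4 without, Slc16a1 is low in LPS alone (140 and 142), and Egln3 is high in replicate 1 of LPS (539) and LPSEff (1265).

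From aldolase to lactate dehydrogenase, few genes were called. Aldoc, an aldolase gene best known from brain, had 248 and 257 normalized counts in Ctrl and 160 and 167 in Eff, against 116 and 153 in LPS and 151 and 150 in LPSEff. It fell in naïve Mϕ (-0.91 ± 0.21, adjusted p = 0.0165) and was at -0.12 ± 0.21 (adjusted p = 0.753) in efferocytic Mϕ. The difference between both effects was 0.79 ± 0.30, with an adjusted p of 1.00. The call of Aldoc was lost without Ctrl replicate 1 (adjusted p = 0.0744), Ctrl replicate 2 (0.0868) or LPS replicate 1 (-0.72, 0.0834). Eno2, an enolase best known from neurons, had 51.4 and 39.9 normalized counts in Ctrl and 36.8 and 33.2 in Eff, against 105 and 123 in LPS and 61.0 and 45.7 in LPSEff. Eno2 rose in naïve Mϕ (1.31 ± 0.29, adjusted p = 0.014) and was at 0.58 ± 0.29 (adjusted p = 0.212) in efferocytic Mϕ, with a difference of -0.72 ± 0.41 (adjusted p = 1.00). Its call was lost without Ctrl replicate 2 (1.13, adjusted p = 0.0876) or LPS replicate 2 (1.19, 0.0728).

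Aldoa, Tpi1, Gapdh, Pgk1, Pgam1, Eno1, Pkm and Ldha encode the major forms of the enzymes between aldolase and lactate dehydrogenase, and none of these 8 was called in either LPS/IFNγ contrast. Their log2 fold changes lay between -0.30 (Pkm) and 0.55 (Pgk1) in naïve and between -0.17 (Pkm) and 0.98 (Pgk1) in efferocytic Mϕ. Gapdh had 419 and 708 normalized counts in Ctrl and 1050 and 1056 in Eff, against 751 and 547 in LPS and 1555 and 783 in LPSEff. Ldha had 2719 and 2412 in Ctrl and 3467 and 2706 in Eff, against 3427 and 1841 in LPS and 4918 and 2710 in LPSEff. Both genes overlapped between stimulated and unstimulated samples. Gpi1, Eno3 and Ldhb were not called either, with values between -0.35 and 0.07 in both contrasts. Several of these genes have near-identical copies. Others overlap another annotated gene on the same strand, among them Aldoa with 43.1% and Pkm with 23.5% of their exon bases. Reads that fit several places or several genes equally are not assigned to a gene by the counting tool in its default mode. The share of a gene's 50-base windows that also occur in other annotated genes was 85.8% for Aldoa, 82.5% for Gapdh, 68.0% for Pgk1, 63.6% for Eno1, 40.9% for Pgam1, 34.2% for Pkm, 22.9% for Ldhb, 19.8% for Gpi1 and 19.1% for Ldha. For Bnip3 and Taldo1, described below, this share was 19.3% and 12.7%. The levels of all these genes are therefore uncertain.

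Among the lactate transporters, Slc16a1 fell with LPS/IFNγ in naïve Mϕ. Slc16a1 encodes MCT1, which carries lactate, pyruvate and ketone bodies in both directions, and lies at chr3:104545811-104565780 on the plus strand. It had 318 and 337 normalized counts in Ctrl and 348 and 389 in Eff, against 140 and 142 in LPS and 410 and 447 in LPSEff. Both LPS samples lay below the 6 others. Slc16a1 fell in naïve Mϕ by 1.21 ± 0.18 on the log2 scale (adjusted p = 0.00223), a call kept in 18 of 18 alternatives, and was at 0.22 ± 0.18 (adjusted p = 0.454) in efferocytic Mϕ. The difference between both effects was 1.43 ± 0.25, with an adjusted p of 1.00. In that test of the difference, none of the 35 genes was called in either direction, where 0% of all tested genes were called higher and 0% lower by limma. Before adjustment, 2 of the 35 (Slc16a1 and Aldoc, 5.71%) and 311 of all 16309 (1.91%) had p under 0.05. EdgeR and DESeq2 called 0 of the 35 as well, and 0% of all tested genes. Slc16a3, which encodes MCT4, the lactate exporter of glycolytic cells, had 1066 and 1085 normalized counts in Ctrl and 1446 and 901 in Eff, against 3147 and 1135 in LPS and 4400 and 1702 in LPSEff. It was not called (0.81 ± 0.55, adjusted p = 0.335, and 1.26 ± 0.55, adjusted p = 0.152). Without replicate 1 of LPS and of LPSEff, its values were 0.08 and 0.58.

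Of the pentose phosphate enzymes, only the transketolase gene was called. Tkt had 4086 and 4192 normalized counts in Ctrl and 3798 and 3671 in Eff, against 2629 and 2488 in LPS and 2606 and 2154 in LPSEff. All 4 stimulated samples were below all 4 others. Tkt fell by 0.69 ± 0.18 on the log2 scale (adjusted p = 0.0236) in naïve and by 0.66 ± 0.18 (adjusted p = 0.0337) in efferocytic Mϕ. These calls were close to the threshold and held in 12 and in 9 of 18 alternatives. They were lost without either Ctrl or either LPS replicate in naïve Mϕ and without any Ctrl, Eff or LPSEff replicate in efferocytic Mϕ, at sizes between -0.79 and -0.52. Both calls were also lost in limma with the filter of a mean above 0 (adjusted p = 0.0611 and 0.0933) and with only the groups compared in the fit (0.0771 and 0.0655). EdgeR without a block did not call Tkt in efferocytic Mϕ (adjusted p = 0.0548). G6pdx and Pgd, which encode the NADPH-producing dehydrogenases, were at 0.14 ± 0.22 and 0.27 ± 0.19 in naïve and at 0.19 ± 0.22 and 0.41 ± 0.19 in efferocytic Mϕ. Taldo1, the transaldolase gene, was at -0.16 ± 0.25 and 0.11 ± 0.25. None of these 3 was called. No other pentose phosphate gene rose among 8 tested, and 2 fell in both contrasts, namely Prps2, a phosphoribosyl pyrophosphate synthetase (-1.65 ± 0.27 and -1.41 ± 0.27), and Shpk, the sedoheptulose kinase gene (-1.56 ± 0.40 and -1.83 ± 0.40).

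Hif1a lies at chr12:73948149-73996321 on the plus strand. It had 1588 and 1704 normalized counts in Ctrl and 1720 and 1667 in Eff, against 6404 and 4895 in LPS and 7353 and 7018 in LPSEff. The stimulated samples stood well above the others, and Hif1a rose by 1.77 ± 0.19 (adjusted p = 0.000529) in naïve and by 2.08 ± 0.19 (adjusted p = 0.000234) in efferocytic Mϕ. This is the RNA, while HIF-1α is mostly controlled as a protein, which was not measured here. Calls of Hif1a, Hk2, Hk3, Pfkfb3 and Slc2a6 were kept in 18 of 18 alternatives in both contrasts.

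The 3 other genes under HIF-1 control were not called in the main limma fit, which had no replicate block. Egln3 encodes an oxygen-sensing prolyl hydroxylase that marks HIF-1α for degradation and is itself induced by HIF-1. It had 76.2 and 49.7 normalized counts in Ctrl and 103 and 34.6 in Eff, against 539 and 48.7 in LPS and 1265 and 195 in LPSEff. Only replicate 1 of LPS was high, and the log2 fold changes of 1.39 ± 1.17 and 3.03 ± 1.17 had adjusted p of 0.45 and 0.112. Bnip3, a mitophagy receptor gene, had 49.5 and 22 normalized counts in Ctrl and 24.5 and 23.3 in Eff, against 91.8 and 19.3 in LPS and 268 and 45.7 in LPSEff. Its values were 0.35 ± 0.91 and 2.17 ± 0.91, with adjusted p of 0.832 and 0.141. Without replicate 1 of LPS and of LPSEff, Egln3 was at -0.33 in naïve and 1.69 in efferocytic Mϕ, and Bnip3 at -0.75 and 0.91. Other settings called Egln3 and Bnip3 in efferocytic Mϕ. With replicate number as a block, limma called Egln3 (adjusted p = 0.000798) and Bnip3 (0.00545) there. The same fit called Egln3 (0.0469) and Pdk1 (0.0479) in naïve Mϕ. It called 37% of all tested genes in efferocytic and 41.2% in naïve Mϕ. Bnip3 was called by DESeq2 (2.77, adjusted p = 0.00423) and without LPSEff replicate 2 (3.44, adjusted p = 0.0442), and Egln3 without LPS replicate 1 or 2 (3.03, adjusted p = 0.0399 and 0.0405). Pdk1, the kinase gene that keeps pyruvate out of the mitochondria, was at -0.92 ± 0.39 (adjusted p = 0.131) and 0.02 ± 0.39 (adjusted p = 0.977), and with equal totals it was called in naïve Mϕ (-1.31, adjusted p = 0.0398).

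The replicates of both stimulated groups differed in these genes. Replicate 1 was above replicate 2 for 24 of the 35 genes in LPS and for 29 in LPSEff, but for 8 in Ctrl and 19 in Eff, where 40.9%, 43.4%, 40.5% and 43.0% of all tested genes were higher in replicate 1 in LPS, LPSEff, Ctrl and Eff. The differences were largest for Egln3, with 3.44 in LPS and 2.69 in LPSEff on the log2 scale, and for Bnip3, with 2.19 and 2.53. Slc16a3 (1.47 and 1.37), Pfkl (1.34 and 1.30), Slc2a1 (1.16 and 1.19) and Tpi1 (1.13 and 1.21) also differed by more than 1 in both groups. Of 24 other HIF-1 target genes, 20 were higher in replicate 1 of LPS and 21 in replicate 1 of LPSEff, with medians of 0.89 and 0.93. Ankrd37 (2.54 and 2.05), Vegfa (2.48 and 1.54), Stc2 (2.45 and 2.11) and Ddit4 (2.06 and 2.05), named after their values were seen, were among the largest of these. The corresponding medians of the 35 genes were 0.39 and 0.45, and of all tested genes -0.13 and -0.08. By contrast, Hif1a differed by 0.39 in LPS and 0.07 in LPSEff. The cause of the difference between replicates was not tested.

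**Figure D3:**
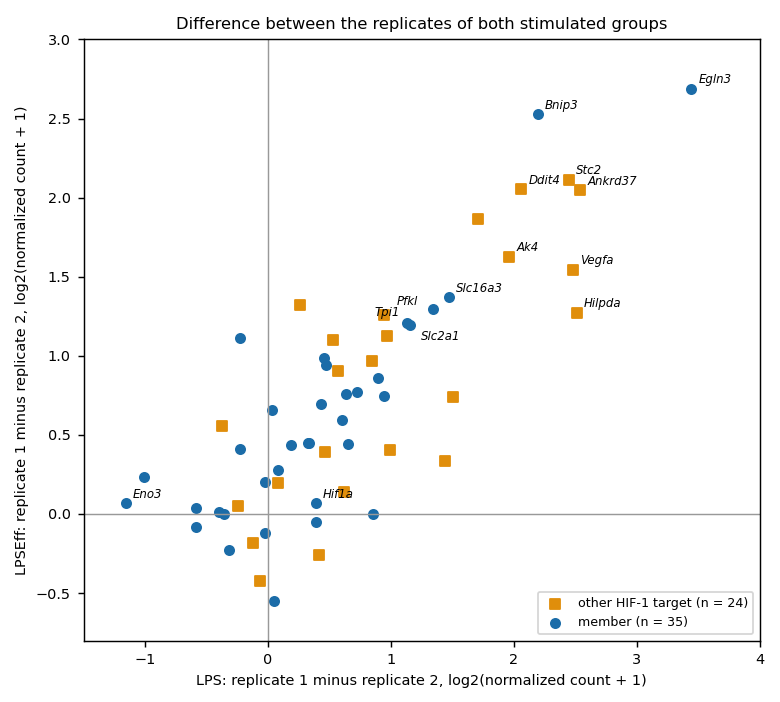
Replicate 1 minus replicate 2 on the log2(normalized count + 1) scale in LPS (horizontal) and in LPSEff (vertical) for the 35 genes (blue circles) and 24 other HIF-1 target genes (orange squares). Most points lie right of and above 0, with Egln3 at 3.44 and 2.69, Bnip3 at 2.19 and 2.53 and Hif1a near 0 at 0.39 and 0.07.

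Other HIF-1 target genes were counted beside the 35. Of 24 tested, 8 rose in naïve and 12 in efferocytic Mϕ, and none fell, with medians of 1.19 and 1.56. Of all tested genes, 12.4% and 10.7% rose and 11.6% and 8.95% fell. Leaving out replicate 1 of both LPS and LPSEff left medians of 0.54 and 1.04. The number of risen genes depended on which library was left out. Hilpda, a lipid droplet protein gene, had 95.2 and 34.1 normalized counts in Ctrl and 460.0 and 192 in Eff, against 1543 and 270.1 in LPS and 3394 and 1405 in LPSEff. It rose by 3.48 ± 0.86 (adjusted p = 0.0212) and 2.87 ± 0.86 (adjusted p = 0.0494). Lox, the lysyl oxidase gene, rose by 3.15 ± 0.64 and 2.36 ± 0.64. Vegfa, the angiogenic growth factor gene, rose in efferocytic Mϕ (2.92 ± 0.86, adjusted p = 0.0466) and was at 2.20 (adjusted p = 0.10) in naïve Mϕ. Adm, the adrenomedullin gene, rose in both (2.84 ± 0.84 and 4.89 ± 0.84), from 1 and 4 reads in Ctrl and 0 and 6 reads in Eff, so that its size depends on the pseudocount. Among 12 other HIF-1 subunits and oxygen sensors, none rose, and only Epas1, which encodes HIF-2α, fell (-2.33 ± 0.49 and -2.17 ± 0.49, adjusted p = 0.011 and 0.0172).

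Beside the 35 genes, few other genes of sugar metabolism rose. Of 16 other tested genes listed under glycolysis and gluconeogenesis, none rose and 2 fell in naïve Mϕ (Pgm2, -0.72 ± 0.22, and Pgam5, -0.68 ± 0.18). Despite its name, Pgam5 does not encode a glycolytic enzyme. In efferocytic Mϕ, Pgm1, a phosphoglucomutase of glycogen metabolism, rose (1.92 ± 0.43, adjusted p = 0.0156), and Bpgm (-1.19 ± 0.34) and Adpgk (-1.0 ± 0.27) fell. Of 8 other transporters of glucose, its phosphate or lactate, 2 fell in both contrasts, Slc37a2 (-2.13 ± 0.18 and -2.05 ± 0.18) and Slc16a7 (-2.01 ± 0.35 and -2.06 ± 0.35), and none rose. Of 12 genes that govern the entry of pyruvate into mitochondria, none rose. Pdp1, which encodes a phosphatase that activates pyruvate dehydrogenase, fell in both (-1.11 ± 0.24 and -1.41 ± 0.24), and Pdp2 fell in naïve Mϕ (-1.01 ± 0.25).

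Within families of isozymes, normalized counts per kb of exons gave each gene's share. The share of Hk2 among the 3 hexokinases was 22.7% ± 1.24 (SD, n = 4) with and 15.5% ± 1.18 (n = 4) without LPS/IFNγ. The share of Pfkfb3 among Pfkfb2, Pfkfb3 and Pfkfb4 was 93.9% ± 2.12 with and 71.4% ± 4.77 without it. Pfkfb1, with between 15 and 65 reads per sample, was not counted in this family. In both families the 4 samples with LPS/IFNγ were all above the 4 without, and the two-sided exact permutation test of 4 against 4 samples gave p = 0.0286 for each, the smallest it can give, and 0.114 after adjustment over the 8 families. The share of Slc16a3 over Slc16a1 was 79.4% ± 11.5 with and 59.8% ± 5.81 without LPS/IFNγ (exact permutation p = 0.0571, adjusted 0.152), and that of Slc2a1 among the glucose transporters 33.4% ± 12.5 and 51.9% ± 12.4 (exact permutation p = 0.0857, adjusted 0.171). Shares of Pfkp, Aldoa, Eno1 and Ldha had adjusted p between 0.274 and 0.971. No family passed after adjustment. With 0.0286 as the smallest possible p, a family could pass only if several others reached it too, so that no conclusion is drawn from this. The size of a share depends on the length used: with windows not shared with other genes, added after the data were seen, Pfkfb3 was at 87.9% and 53.4% and Hk2 at 16.3% and 10.6%. Hk3 was the most abundant hexokinase per kb in every sample, with between 62.4% and 71.1%, and Ldha made up at least 98.7% of lactate dehydrogenase.

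**Figure D4:**
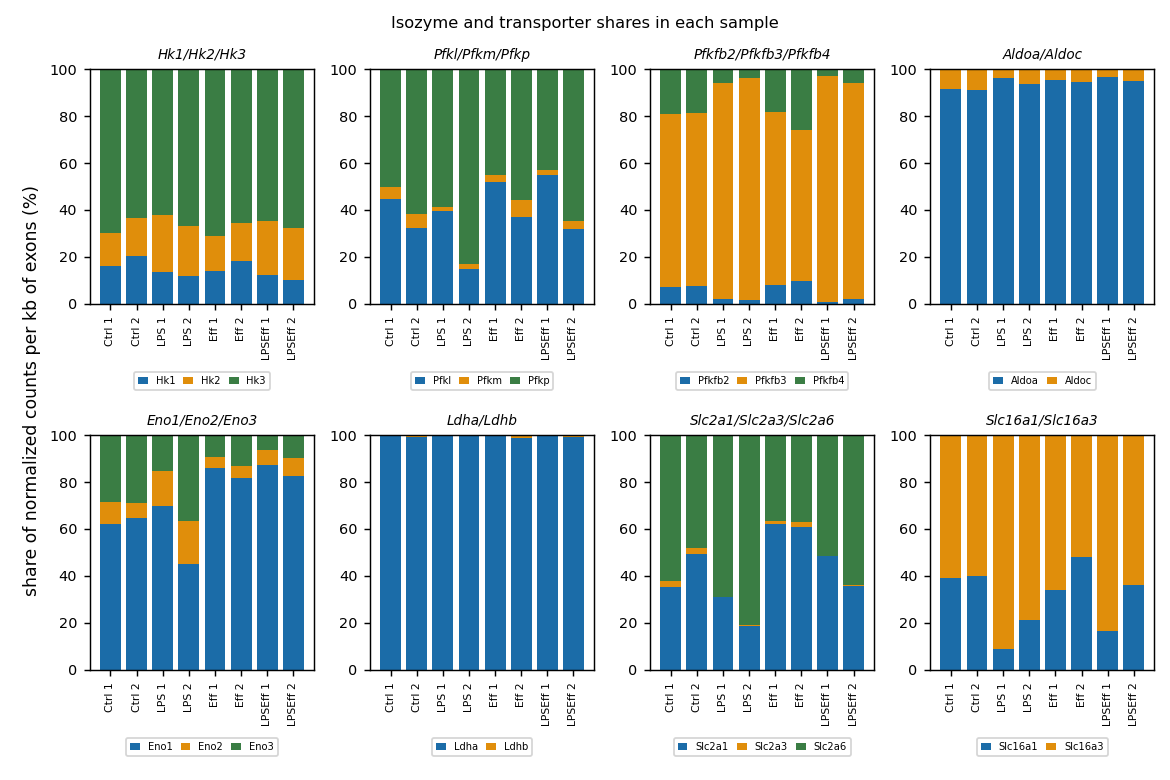
Share of normalized counts per kb of exons (stacked bars, from 0 to 100%) for 8 families in each of the 8 samples. The orange part of the panel of Pfkfb2, Pfkfb3 and Pfkfb4 is Pfkfb3. It fills between 91.8% and 96.5% with LPS/IFNγ and between 64.3% and 74.0% without, and Hk3 is the largest part of the hexokinase panel in all samples.

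Efferocytosis was compared in unstimulated and in stimulated Mϕ, and 1 gene passed in the main limma fit, which had no replicate block. In unstimulated Mϕ (Eff against Ctrl) none of the 35 genes was called by limma, edgeR or DESeq2 without a replicate block. Limma called 0.215% of all tested genes higher and 0.0368% lower. EdgeR called 0.0858% of all tested genes and DESeq2 1.3% of those with an adjusted p, in either direction. Before adjustment, 6 of the 35 (17.1%) had p under 0.05, as did 6.13% of all tested genes. With replicate number as a block, limma and edgeR called Slc2a6 lower (adjusted p = 0.0153 and 0.0203), and 2.67% and 2.63% of all tested genes were called. In stimulated Mϕ (LPSEff against LPS) 1 of 35 rose and none fell, where 0.73% and 0.0429% of all tested genes did, and 8 (22.9%) had p under 0.05 before adjustment, as did 10.3% of all tested genes. That gene was Slc16a1, at 1.60 ± 0.18 (adjusted p = 0.015). Both LPSEff samples were above both LPS samples, and the size was between 1.53 and 1.66 in the alternatives. The call was lost, with adjusted p between 0.0686 and 0.148, without LPS replicate 2, without either LPSEff replicate and when only both groups entered the fit. Averaged over unstimulated and stimulated Mϕ, Slc16a1 was again the 1 gene that rose (0.88 ± 0.13, adjusted p = 0.0141), and none fell, where 1.62% of all tested genes rose and 0.3% fell. The median log2 fold change of the 35 genes was 0.05 in Eff against Ctrl and 0.53 in LPSEff against LPS, beside -0.01 and -0.00 over all tested genes.

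The remaining genes are given by their values, since none passed in the main limma fit, which had no replicate block. With replicate number as a block, limma called Hk3, Eno2, Eno3, Pkm, Pgd and Taldo1 in LPSEff against LPS (adjusted p between 0.0145 and 0.043). For the averaged effect it added Hk3, Pfkp, Gapdh, Eno1, Eno2, Eno3, Pkm, Slc2a6, Pgd and Taldo1. That fit called 6.97% and 11.3% of all tested genes. Replicate differences correlated between groups (r from 0.404 to 0.595), but labels do not say that replicate numbers pair samples. Gapdh was at 0.95 ± 0.36 in Eff against Ctrl and at 0.78 ± 0.36 in LPSEff against LPS (adjusted p = 0.689 and 0.526), without overlap of the groups in either. Pkm, which encodes the muscle-type pyruvate kinase, was at 0.57 ± 0.23 and 0.70 ± 0.23, Pgd at 0.58 ± 0.19 and 0.72 ± 0.19, and Taldo1 at 0.55 ± 0.25 and 0.81 ± 0.25, also without overlap, with adjusted p between 0.192 and 0.845. Eno3 was lower with efferocytosis, at -1.11 ± 0.36 and -1.45 ± 0.36 (adjusted p = 0.529 and 0.169), with 137 and 163 normalized counts in Ctrl and 65.7 and 71.3 in Eff, against 98.3 and 220 in LPS and 54.6 and 52.0 in LPSEff. Slc2a6 was at -0.77 ± 0.21 (adjusted p = 0.37) and -0.34 ± 0.21 (adjusted p = 0.669). The averaged effect of Eno3 (-1.28 ± 0.26) and of Pgd (0.65 ± 0.13) had adjusted p of 0.0513 and 0.0579. DESeq2 called Eno3 (-1.58, adjusted p = 0.0125) and Pgd (0.71, adjusted p = 0.0376) in LPSEff against LPS, and Gapdh, Eno3, Pkm, Pgd and Taldo1 for the averaged effect (adjusted p between 0.000345 and 0.029), where it called 2.4% and 3.95% of all genes. Without LPS replicate 1, limma called Eno3 in LPSEff against LPS (-2.03, adjusted p = 0.0458). Hif1a was at 0.04 ± 0.19 and 0.36 ± 0.19, with adjusted p of 0.999 and 0.597.

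Transcripts of fibroblast markers moved with the same groups. Of 13 tested fibroblast markers, 5 rose in Eff against Ctrl and 7 in LPSEff against LPS, with medians of 4.41 and 4.43, in spite of the CD45 selection. Called or not, 12 and 11 of the 13 were higher. In LPS against Ctrl, where no fibroblasts were added, 3 of the 13 also rose (median 1.32), so that a rise is not specific to added fibroblasts. The part of fibroblast RNA in the efferocytosis values of the 35 genes, Slc16a1 included, was not tested. Slc16a1 had 318 and 337 normalized counts in Ctrl and 348 and 389 in Eff, against 140 and 142 in LPS and 410 and 447 in LPSEff. The fibroblast sum was at most 380 in Ctrl and at least 2029 in Eff. It was at most 997 in LPS and at least 5464 in LPSEff. Of the lists beside the 35 genes, 2 genes of sugar metabolism rose with efferocytosis. Pdk4, which inactivates pyruvate dehydrogenase, had 1.90 and 1.73 normalized counts in Ctrl and 20.2 and 29.6 in Eff, against 0 and 1.02 in LPS and 41.2 and 49.5 in LPSEff. It rose in LPSEff against LPS (adjusted p = 0.0177) and on average (adjusted p = 0.00489), and no fold is given because its naïve samples held at most 3 reads. Eno1b, an enolase gene much like Eno1, rose on average (1.63 ± 0.29, adjusted p = 0.0315), with 203 normalized counts in both Eff samples against 41.9 and 104 in Ctrl.

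**Figure D5:**
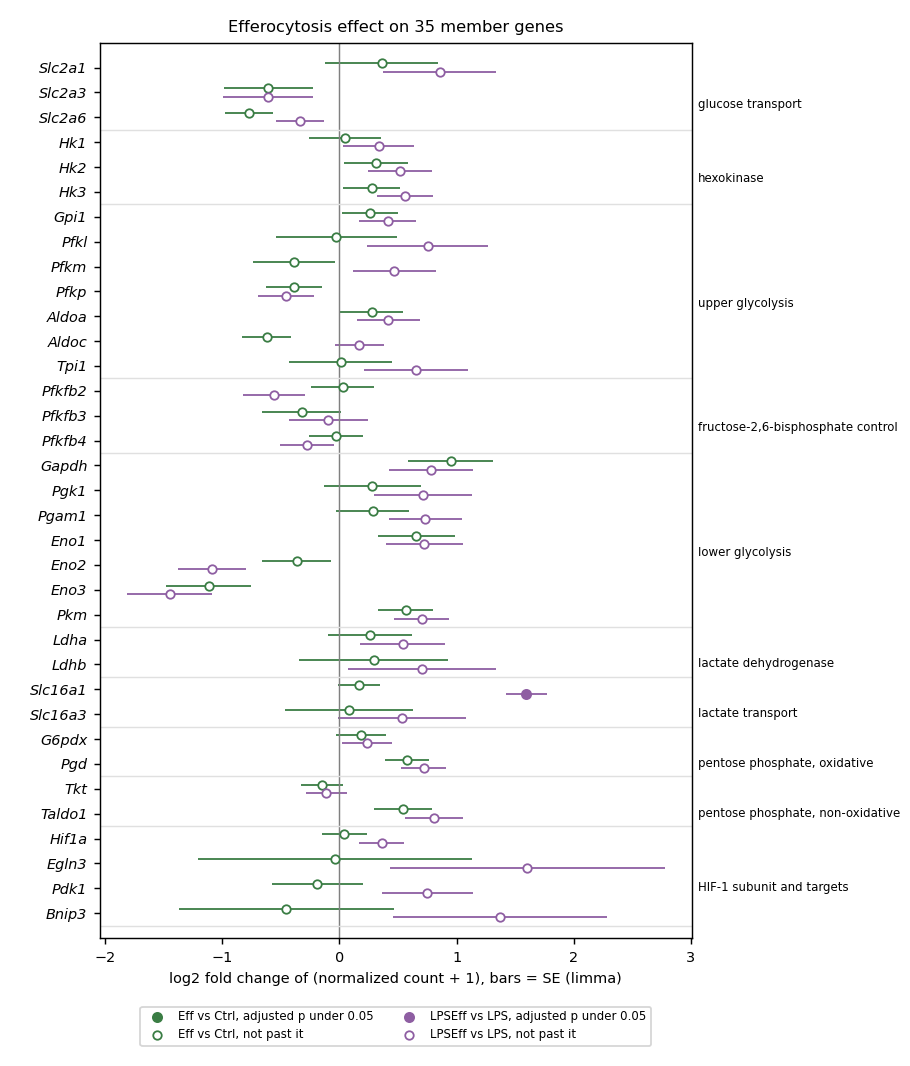
Log2 fold change of (normalized count + 1) with its SE from limma for the 35 genes, ordered by role, in Eff against Ctrl (green) and in LPSEff against LPS (purple), with n = 2 samples per group. Only Slc16a1 in LPSEff against LPS (1.60) is filled, meaning an adjusted p under 0.05, and Eno3 and Eno2 lie farthest left.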

How the data were processed

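Total RNA-seq was analysed for 8 BMDM samples. Per the labels and methods, rRNA was depleted, reads were trimmed (cutadapt), cleared of rRNA (Bowtie2), aligned to mm39 (STAR) and counted per gene (HTSeq, default mode), with versions not given in the sources used here. The deposited signal is a normalized count, the reads of a gene divided by the authors' size factor of the sample. Dividing the values of a sample by its smallest nonzero value gave whole reads within 0.01 for 100% of them. Floors given in reads cover counting error only. GENCODE annotation (GRCm39) named 54749 of 55359 identifiers and gave positions.

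Values were taken as log2(normalized count + 1), which compresses fold changes at low counts, and fitted by limma 3.58.1 (R 4.3.3) with a trend in 16309 genes whose mean was at least 10, with 4 groups in 1 model and 4 residual degrees of freedom. Tests were two-sided, adjusted after Benjamini-Hochberg over all tested genes of a contrast, and called at an adjusted p under 0.05. Permuting 2 against 2 samples allows no p below 0.333. Isozyme shares were compared by an exact permutation test over samples.

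Alternatives were other pseudocounts (0.5 and 5), other filters (a mean above 0, or at least 50), fits of only the groups compared, a replicate block, equal totals, each replicate left out, and count tests on the recovered reads by edgeR 4.0.16 (TMM) and DESeq2 1.42.0. EdgeR called 7 risen and 4 fallen of the 35 genes in LPS against Ctrl (2128 and 1863 of all tested) and 8 and 2 in LPSEff against Eff (1974 and 1535). In LPSEff against Eff, its called genes held Slc2a3 but not Tkt, unlike those of limma. The tests were checked on simulated counts. The 35 genes and all other lists were chosen with earlier results of these data known. Per-sample values are given for called genes, and from each other list at most the 3 called genes with the largest change per contrast are named. A gene that this rule would name is not reported here. Promoter windows came from RefSeq.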

Additional observations from a re-analysis of the deposited data

Results flagged for a closer look

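The effect of LPS/IFNγ on Slc16a1 differed between naïve and efferocytic Mϕ by 1.43 on the log2 scale (interaction of limma, adjusted p = 1.00 over all tested genes). Naïve Mϕ moved down, from 318 and 337 normalized counts in Ctrl to 140 and 142 in LPS, and efferocytic Mϕ moved up, from 348 and 389 in Eff to 410 and 447 in LPSEff. The difference did not pass after adjustment.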

How the results depend on the processing

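Labels give the replicate numbers 1 and 2 but do not say that they pair samples. Across all tested genes, the difference between replicates correlated between groups with r from 0.404 to 0.595. With a replicate block, called genes of the 35 numbered 16 in LPS against Ctrl (main count 11), 17 in LPSEff against Eff (10), 1 in Eff against Ctrl (0), 7 in LPSEff against LPS (1) and 11 for the averaged efferocytosis effect (1), where the same fit called 41.2%, 37%, 2.67%, 6.97% and 11.3% of all tested genes (main 24%, 19.7%, 0.251%, 0.773% and 1.92%). The block added Hk1, Slc2a1, Slc16a3, Egln3 (adjusted p = 0.0469) and Pdk1 (0.0479) in LPS against Ctrl. In LPSEff against Eff it added Pfkl, Pfkfb4, Pgk1, Slc2a3, Slc16a3, Egln3 (0.000798) and Bnip3 (0.00545). It added Slc2a6 at -0.77 (0.0153) in Eff against Ctrl, and Hk3, Eno2, Eno3 (0.0145), Pkm (0.0395), Pgd (0.0203) and Taldo1 (0.0148) in LPSEff against LPS. For the averaged effect it added Hk3, Pfkp, Gapdh (0.0284), Eno1, Eno2, Eno3 (0.00273), Pkm, Slc2a6, Pgd (0.00386) and Taldo1. With edgeR and the replicate block, added after the data were seen, the counts were 14, 18, 1, 7 and 11, beside 40.9%, 38.7%, 2.63%, 7.56% and 11.7% of all tested genes. DESeq2 called 3 genes in LPSEff against LPS and 6 for the averaged effect, and edgeR without the block called 2 for the averaged effect, as did equal totals and the filter of a mean above 0. Only the groups compared in the fit gave 0 in LPSEff against LPS. That fit called 66 of all 16309 tested genes higher there and 0 lower. For the averaged effect, equal totals called 253 of all 16309 tested genes higher and 63 lower. The filter of a mean above 0 called 294 of 45925 higher and 48 lower, and edgeR without the block 253 of 16309 and 58. Leaving out each replicate in turn gave from 7 to 11 genes in LPS against Ctrl, from 5 to 13 in LPSEff against Eff, from 0 to 2 in LPSEff against LPS and from 0 to 2 for the averaged effect. Leaving out replicate 1 of both LPS and LPSEff, also added, gave 8, 6, 0 (Eff against Ctrl), 0 (LPSEff against LPS) and 1 (averaged). The median of the 35 genes was -0.16 with equal totals in LPSEff against Eff (main 0.28), and in LPSEff against LPS it was between 0.16 and 0.78 with a replicate left out (main 0.53). The cause of these differences was not tested, except that fits with fewer samples or groups have fewer residual degrees of freedom. With any 1 replicate left out, fewer of all tested genes than in the main fit were called in LPS against Ctrl and LPSEff against LPS. The same held in LPSEff against Eff, except that more were called without either LPS replicate. For the averaged effect it held except without LPS replicate 1. A lower count of the 35 genes in such fits is therefore not specific to them. No called gene changed its direction. No isozyme share passed with the longest transcript or the unshared windows as the length, and this test was not rerun with a replicate left out. Since no single family could pass on its own after adjustment, this says little about the shares. The shallowest library, Ctrl replicate 1 with 3481288 reads, limits the precision for the genes with the lowest counts.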
